A study of Mus musculus with 24 samples.

Results

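Midbrain dopamine neurons are specified by a small set of transcription factors and make dopamine with a short chain of enzymes and transporters. The 10 genes of this program followed here by symbol were Th, Ddc, Slc6a3, Slc18a2, Nr4a2, Pitx3, En1, Lmx1a, Lmx1b and Foxa2. Of these 10 genes, 9 had a probe set (a group of array probes read as 1 value) that carried their symbol alone, each with 1 probe set, out of 23410 probe sets with a gene symbol and 28856 in the table. Lmx1a was not analysed here.

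The samples were primary cultures of neural cells from fetal cortex and from mesencephalon (midbrain) of C57Bl/6 mice at embryonic day 14. The labels name no genetic change and no agent other than the gas mixture. The cells were kept in expansion medium for 48 h or 13 d, at 3% O2 or at 21% O2, which gives 8 groups of 3 arrays and 24 arrays in all. Each array was hybridised with RNA from a culture well. The labels do not say whether the 3 replicates of a group came from separate dissections, so p-values measure the spread between these samples, which may be technical. All values are the log2 values of the deposited table, so that a difference of 1 is a doubling, and errors are SD over the 3 arrays unless called SE.

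In the midbrain, Foxa2, Lmx1a and Lmx1b act in floor plate progenitors that give rise to dopamine neurons. En1 marks the midbrain and the neighbouring hindbrain and is later needed for the survival of dopamine neurons, while Nr4a2 (Nurr1) and Pitx3 switch on the transmitter genes in young postmitotic neurons. Th (tyrosine hydroxylase) makes the dopamine precursor L-DOPA and Ddc (aromatic amino acid decarboxylase) turns it into dopamine, Slc18a2 (VMAT2) loads it into vesicles, and Slc6a3 (DAT) takes it back up after release. Nr4a2 is also known in deep-layer and subplate neurons of the cortex, so it is not a marker of dopamine neurons alone.

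Promoter stretches of 5 of the genes are shown. Th, Slc18a2, Slc6a3 and En1 were called in every region comparison below, and Ddc was not always. En1 gave the widest contrast of midbrain 48 h with cortex 13 d at both oxygen levels, though not with cortex 48 h at 3% O2. Slc6a3 and En1 carry the core letters of an oxygen-dependent element. A set of 6 motifs was searched on both strands in the windows of 250 bases before to 50 bases after each RefSeq start site (build GRCm38.p6), namely the cAMP response element TGACGTCA, the Nr4a2 monomer site AAAGGTCA, the forkhead core TGTTTAC, the homeodomain core TAATTA, the HIF core ACGTG and the TATA box TATAAA. Capitals mark any match to these 6 motifs, and all sequences read 5′ to 3′ on the strand of the gene.
Th, chr7:142899992-142900115, minus strand, bases -120 to 4 from the start: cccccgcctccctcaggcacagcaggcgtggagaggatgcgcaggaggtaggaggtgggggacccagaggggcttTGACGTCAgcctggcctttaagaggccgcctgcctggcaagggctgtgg
Slc18a2, chr19:59260758-59260881, plus strand, bases -120 to 4: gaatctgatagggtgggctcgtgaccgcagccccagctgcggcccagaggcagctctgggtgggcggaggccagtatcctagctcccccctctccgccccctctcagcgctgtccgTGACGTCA
Ddc, chr11:11898141-11898264, minus strand, bases -120 to 4 of one of its 2 start sites: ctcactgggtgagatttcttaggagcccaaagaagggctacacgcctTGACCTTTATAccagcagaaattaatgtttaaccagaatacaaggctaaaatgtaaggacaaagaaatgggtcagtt
Slc6a3, chr13:73536527-73536626, plus strand, from base -220: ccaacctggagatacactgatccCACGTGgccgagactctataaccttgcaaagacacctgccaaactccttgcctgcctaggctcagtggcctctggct
En1, chr1:120602267-120602366, plus strand, from base -220: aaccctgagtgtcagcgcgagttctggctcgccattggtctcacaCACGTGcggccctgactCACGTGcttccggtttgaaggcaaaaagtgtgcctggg

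The cAMP response element was found in 2 of the 10 genes, at -45 to -38 in Th and across the start site, from -4 to 4, in Slc18a2, and in 1.79% of 32851 promoter windows in the table. The Nr4a2 monomer site was found in 1 of the 10 genes, Ddc, in the reverse orientation at -73 to -66, where it overlaps a reversed TATA box, and in 1.51% of all windows. The HIF core was found in 3 of the 10 genes, that is in 3 of their 13 windows, against 19.6% of all windows. In Slc6a3 it stands at -197 to -192 and in En1 at -175 to -170 and -158 to -153, each time as CACGTG, where the matches of both strands overlap, and Lmx1b holds it at -128 to -124. The forkhead and homeodomain cores were in 0 of the 10 genes and in 3.65% and 5.29% of all windows. The TATA box letters were in 3 of the 10 genes and, on either strand, in 13.6% of all windows. In the 3 genes they were reversed (TTTATA), at -68 to -63 in Ddc, -164 to -159 in Nr4a2 and -208 to -203 in Foxa2. No member carried TATAAA on the strand of the gene. The shares are of windows and the counts of genes. The 10 genes have 13 windows, and each motif was in as many of these windows as genes. These matches describe letters and not bound sites.

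The regional labels were checked with marker genes before the members were compared. All 10 markers of other midbrain neurons were higher in midbrain 48 h than in cortex labelled 48 h at 21% O2, among them the tectal factor Pax7 at 9.69 ± 0.01 against 7.36 ± 0.09. The cortical markers did not separate the regions in the same way. Of 8 measured cortical genes, 3 were higher and 1 lower in midbrain 48 h than in cortex labelled 48 h at 21% O2 (median 0.43), and 5 were higher and 1 lower at 3% O2 (median 0.74), against the regional label. Bcl11b (1.68, SE 0.10) and Neurod2 (0.71, SE 0.08) were higher in midbrain at 21% O2. The 1 lower gene was Tbr1, a factor of deep-layer cortical neurons, at -0.74 (SE 0.10) at 21% O2 and -0.43 (SE 0.10) at 3% O2. Against cortex labelled 13 d, 0 of the 8 were higher and 6 lower at either oxygen level, with medians of -1.30 and -1.50. Of all probe sets, 21.9% and 23.1% were lower there at 21% and 3% O2. Tbr1 was between 11.2 and 11.5 on the 6 arrays labelled cortex 13 d but between 6.35 and 7.03 on the 6 labelled cortex 48 h. The latter values lay above its level of 6.02 to 6.22 in the midbrain groups, though nearer to it than to cortex 13 d. The mean of 14 neuron markers was 9.20 and 8.91 in cortex labelled 48 h at 21% and 3% O2, and 11.1 in both groups labelled 13 d. In the midbrain the order was the opposite, with means of 11.7 at 48 h in both oxygen groups and 8.32 and 8.33 at 13 d. These values leave it in doubt whether the time labels of the cortex arrays are right, and every comparison with a cortex time, and the difference of oxygen responses between cortex times, depends on them. The labels were kept as they stand, so "cortex 48 h" and "cortex 13 d" mean the arrays labelled so, and midbrain 48 h was compared with both.

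A group of 4 arrays stood apart from their groups in markers of other regions or cell types. Replicate 3 of midbrain 48 h had a mean of 10 endothelial, pericyte and meningeal markers of 7.98 at 21% O2 and 7.92 at 3% O2, against 6.87 to 6.93 on the other 4 arrays of that time, and Dcn (decorin, from meningeal and connective tissue cells) was 10.9 and 10.6 there against 6.92 to 7.65. Replicate 1 of cortex 48 h at 3% O2 had the midbrain genes En2 at 9.13 and Otx2 at 10.6, against 7.26 and 7.36 for En2 and 9.37 and 9.24 for Otx2 on the other 2 arrays, and the cortical gene Emx2 at 6.86 against 9.07 and 8.87. Replicate 1 of cortex 48 h at 21% O2 had En2 at 8.04 against 7.42 and 7.54, and the astrocyte gene Gfap at 6.06 against 8.14 and 8.01. For the members, several results that rest on these arrays are given with and without them below. Results for the genes of the other lists are given with all arrays only. The part these markers play in the results was otherwise not tested.

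**Figure D1:**
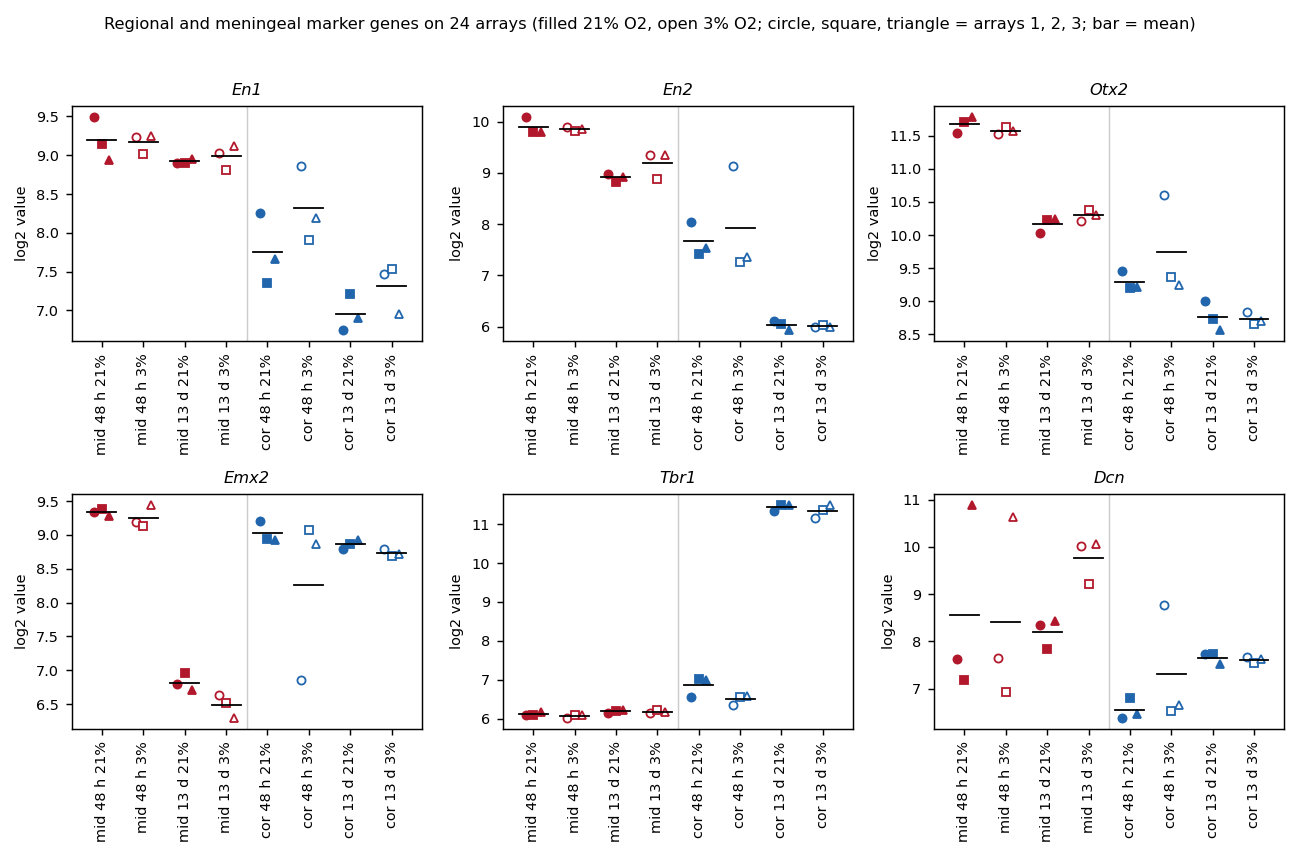
Log2 values of 6 marker genes on all 24 arrays, grouped by region, labelled culture time and oxygen (mid, midbrain; cor, cortex), with a bar at each group mean; each panel has its own axis. Replicate 3 of midbrain 48 h is highest in its group for Dcn at both oxygen levels, and replicate 1 of cortex 48 h at 3% O2 has Emx2 at 6.86 and En2 at 9.13.

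The 9 genes fell into 3 kinds by how far their 8 group means spread. Nr4a2 spanned 2.48, En1 2.24 and Slc18a2 1.32 on the log2 scale, spans larger than those of 95.9%, 94.5% and 83.2% of all named probe sets. Th spanned 0.96 and Slc6a3 0.81. Ddc (0.46), Foxa2 (0.40), Pitx3 (0.28) and Lmx1b (0.25) spanned less than the median probe set, since 46.3%, 41.9%, 31.9% and 28.4% of probe sets had smaller spans. The midbrain 13 d arrays were of another array run, as given below, and the spans of Nr4a2, Pitx3 and Lmx1b have a midbrain 13 d group at an end. The lowest Nr4a2 mean was 7.62 there and 8.31 among the groups of the other run. Normalized values do not show whether a probe set was above background.

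**Figure D2:**
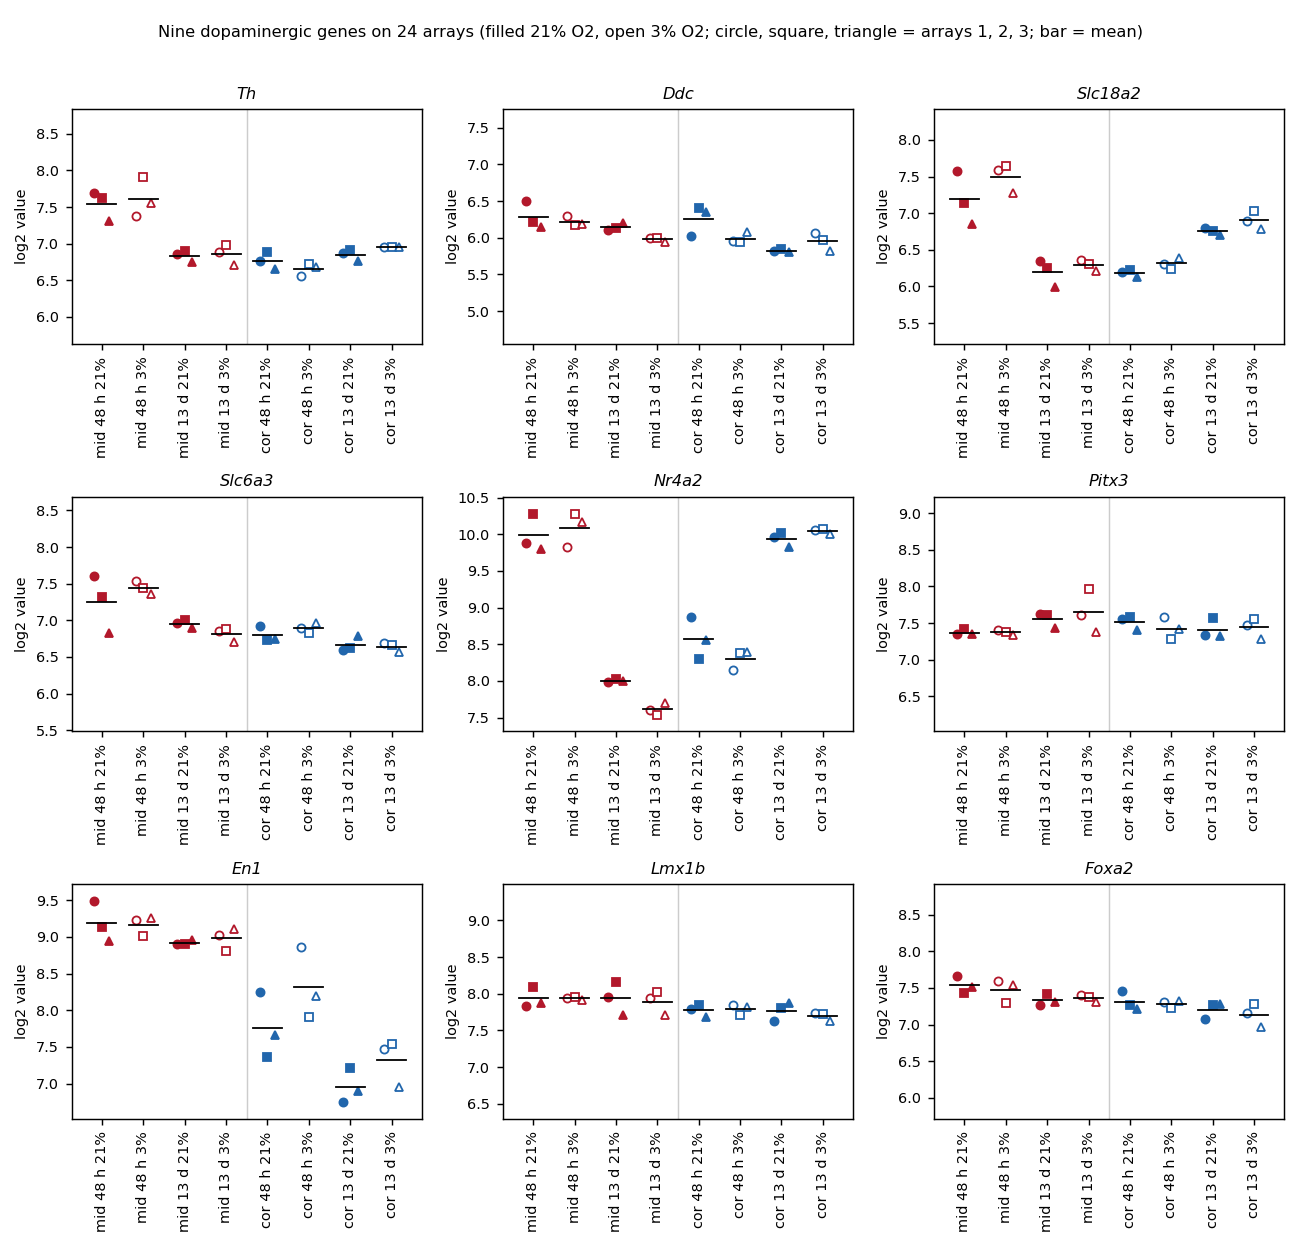
Log2 values of the 9 measured genes on all 24 arrays by group, with the 3 arrays of each group as circle, square and triangle and a bar at the mean; every panel covers 3.2 log2 units. Th, Slc18a2 and Slc6a3 are highest in midbrain 48 h, Nr4a2 is near 10 in midbrain 48 h and in cortex 13 d, and En1 stays near 9 in all 4 midbrain groups.

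Of the 9 genes, 6 were higher in midbrain 48 h than in cortex 48 h cultures at each oxygen level, and 3 did not pass. At 21% O2, limma with Benjamini-Hochberg adjustment over the 23410 probe sets called 6 of the 9 genes higher in midbrain (Nr4a2, En1, Slc18a2, Th, Slc6a3 and Foxa2) and 0 lower, where 24.3% of all probe sets were called higher. At 3% O2 it called 6 higher (the same without Foxa2 and with Ddc) and 0 lower, where 24.3% were also called higher. The median difference of the 9 genes was 0.45 at 21% O2 and 0.55 at 3% O2, beside -0.02 and -0.06 over all probe sets. Markers of other cell types moved in the same comparisons. At 21% O2, 14 of 14 neuron markers and 8 of 8 microglia markers (median 1.04) were higher in midbrain, while 7 of 8 astrocyte markers (median -1.74), 6 of 8 oligodendrocyte markers (-2.45) and 9 of 9 progenitor markers (-1.68) were lower. The 8 microglia markers were also all higher at 3% O2 (median 1.03) and against cortex 13 d at both oxygen levels (0.93 and 0.82). The part of these cell types in the members' differences was not tested. In RNA from whole cultures, fewer cells of a type and less RNA per cell cannot be told apart.

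Nr4a2, the nuclear receptor that switches on the transmitter genes, was higher in midbrain at both oxygen levels. In midbrain 48 h it read 9.88, 10.28 and 9.80 at 21% O2 and 9.83, 10.28 and 10.17 at 3% O2. In cortex 48 h it read 8.87, 8.29 and 8.56 at 21% O2 and 8.14, 8.38 and 8.40 at 3% O2. Every midbrain array lay above every cortex array of its oxygen level. The difference was 1.41 (SE 0.13), a fold of 2.66, at 21% O2 (adjusted p = 1.44e-08) and 1.79 (SE 0.13), a fold of 3.45, at 3% O2 (adjusted p = 3.58e-10). It kept its call in all 15 alternative fits at either oxygen level, with 1.26 to 1.56 and 1.69 to 1.92.

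En1 was higher in midbrain in both comparisons, by an amount that rested partly on the cortex arrays. Its values in midbrain 48 h were 9.49, 9.14 and 8.94 at 21% O2 and 9.23, 9.01 and 9.25 at 3% O2. In cortex 48 h they were 8.25, 7.36 and 7.67 at 21% O2 and 8.86, 7.91 and 8.20 at 3% O2, so that replicate 1 was the highest cortex array in both, the array that also carried the most En2. The groups did not overlap, and the difference was 1.43 (SE 0.23, adjusted p = 1.53e-05) at 21% O2 and 0.85 (SE 0.23, adjusted p = 0.0029) at 3% O2. Without both number 1 arrays of cortex 48 h, a choice made once the marker levels were known, it was 1.68 and 1.12 (limma adjusted p = 1.18e-07 and 1.90e-05).

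The floor plate regulators and Pitx3 differed little between regions. Foxa2, a forkhead factor of the floor plate, was 7.67, 7.43 and 7.51 in midbrain 48 h and 7.45, 7.27 and 7.22 in cortex 48 h at 21% O2, groups that overlapped. Its difference of 0.22 (SE 0.09) passed at 21% O2 (adjusted p = 0.0417) and that of 0.19 (SE 0.09) did not at 3% O2 (adjusted p = 0.0748). The call at 21% O2 was lost without midbrain replicate 1 or 3, without cortex replicate 2 or 3, under both rescalings and with the compared arrays alone (limma adjusted p 0.0575 to 0.185). Lmx1b, a LIM homeodomain factor, differed by 0.16 (95% interval -0.04 to 0.37) and 0.15 (-0.06 to 0.35), and Pitx3 by -0.15 (-0.38 to 0.09) and -0.05 (-0.28 to 0.19). Neither passed the threshold, and differences up to the bounds of these intervals cannot be told from 0 here.

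Of the 2 synthesis enzymes, Th passed at both oxygen levels. Th read 7.70, 7.63 and 7.31 in midbrain 48 h at 21% O2 and 7.38, 7.91 and 7.55 at 3% O2. In cortex 48 h it read 6.77, 6.89 and 6.66 at 21% O2 and 6.56, 6.73 and 6.68 at 3% O2. No cortex array reached the lowest midbrain array, and Th was higher in midbrain by 0.78 (SE 0.11), a fold of 1.71, at 21% O2 (adjusted p = 4.42e-06) and by 0.96 (SE 0.11), a fold of 1.94, at 3% O2 (adjusted p = 2.36e-07). Both calls held in all 14 alternative fits. Ddc, the second enzyme, also serves serotonin synthesis, and it differed by 0.03 (95% interval -0.16 to 0.22) at 21% O2, where the arrays overlapped.

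At 3% O2, Ddc was 6.29, 6.17 and 6.19 in midbrain and 5.95, 5.94 and 6.08 in cortex. The arrays did not overlap, and the difference of 0.23 (SE 0.09) passed with an adjusted p of 0.0352. That call was lost without midbrain replicate 1 or 3 or without cortex replicate 1 or 2 (limma adjusted p 0.0559 to 0.120). It held without both number 1 arrays of cortex 48 h (adjusted p = 0.0426) and without both number 3 arrays of midbrain 48 h (adjusted p = 0.0477).

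Both transporters were higher in midbrain. Slc18a2 was 7.58, 7.13 and 6.85 in midbrain 48 h at 21% O2 and 7.58, 7.65 and 7.27 at 3% O2, against 6.20, 6.22 and 6.13 and against 6.31, 6.24 and 6.39 in cortex 48 h. Every midbrain array was above every cortex array, with a difference of 1.00 (SE 0.13), a fold of 2.01, at 21% O2 (adjusted p = 1.59e-06) and of 1.18 (SE 0.13), a fold of 2.27, at 3% O2 (adjusted p = 1.44e-07). Slc6a3 was 7.61, 7.32 and 6.83 in midbrain at 21% O2, and its lowest array lay within the cortex values of 6.92, 6.74 and 6.74. At 3% O2 it was 7.54, 7.44 and 7.36 against 6.90, 6.83 and 6.96, with no overlap. The differences of 0.45 (SE 0.12, adjusted p = 0.00362) and 0.55 (SE 0.12, adjusted p = 0.000589) both passed, the first not in a fit of the compared arrays alone (adjusted p = 0.0994).

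The 3 midbrain arrays at 21% O2 differed among themselves in these genes. Replicate 3, the array with high meningeal markers, was the lowest of the 3 for Th, Ddc, Slc6a3, Slc18a2, Nr4a2 and En1, that is for 6 of the 9 genes, and replicate 1 was the highest for 6. At 3% O2 replicate 3 was the lowest for 4 of the 9. Leaving out both number 3 arrays, also chosen with the marker levels known, the differences from cortex 48 h at 21% O2 were 0.89 for Th, 1.17 for Slc18a2 and 0.66 for Slc6a3, and 5 genes were called higher, Foxa2 no longer (adjusted p = 0.0718).

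**Figure D3:**
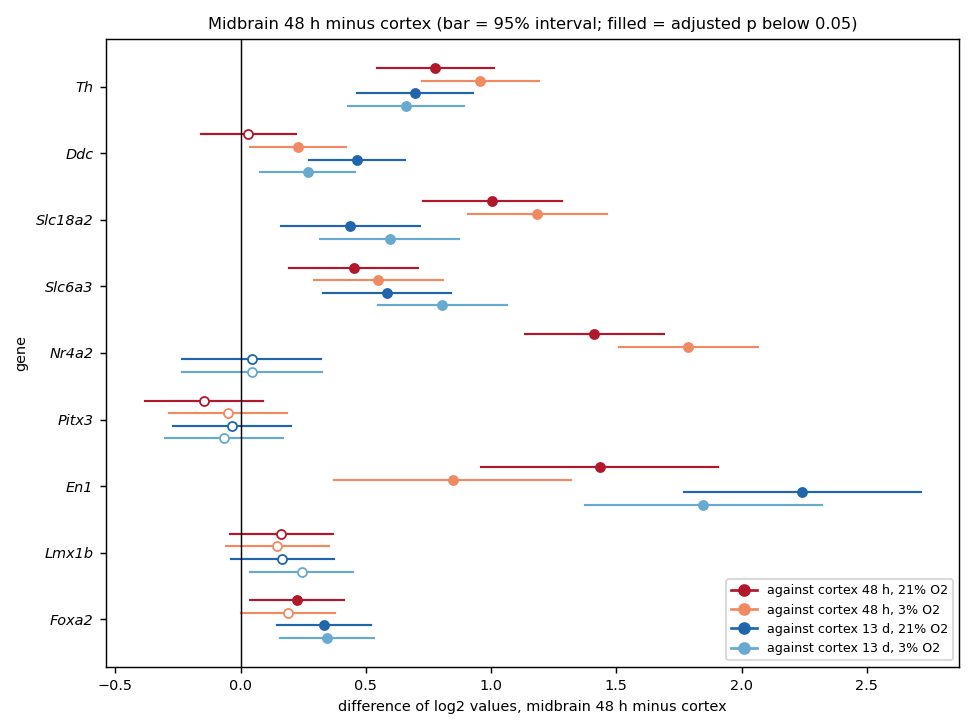
Log2 difference of midbrain 48 h from cortex for the 9 genes (x axis), with bars for the 95% interval and filled points for an adjusted p below 0.05, against cortex 48 h (red tones) and cortex 13 d (blue tones). Nr4a2 lies at 1.41 and 1.79 against cortex 48 h and at 0.04 and 0.05 against cortex 13 d, while Th lies between 0.66 and 0.96 in all 4.

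Against cortex 13 d, the cortex arrays with the higher neuron markers, Th, Slc18a2, Slc6a3, Ddc, En1 and Foxa2 were higher in midbrain 48 h and Nr4a2 was not. At 21% O2, 6 of the 9 genes were called higher and 0 lower, where 19.5% of all probe sets were called higher. At 3% O2 the count was again 6 and 0, where 19.7% were called higher. The median difference of the 9 genes was 0.44 and 0.35, beside 0.01 and -0.02 over all probe sets.

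Nr4a2 read 9.97, 10.02 and 9.83 in cortex 13 d at 21% O2 and 10.06, 10.07 and 10.01 at 3% O2, values inside the midbrain 48 h range. Its differences were 0.04 (95% interval -0.23 to 0.32) and 0.05 (-0.23 to 0.32). En1, by contrast, was 6.74, 7.21 and 6.90 in cortex 13 d at 21% O2 and 7.47, 7.53 and 6.95 at 3% O2, far from the midbrain arrays. It was higher in midbrain by 2.24 (SE 0.23), a fold of 4.73, at 21% O2 (adjusted p = 1.41e-07) and by 1.85 (SE 0.23), a fold of 3.60, at 3% O2 (adjusted p = 1.50e-06).

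Among the transmitter genes, Th was higher by 0.70 (SE 0.11) at 21% O2 and 0.66 (SE 0.11) at 3% O2 than in cortex 13 d, whose 6 arrays read 6.76 to 6.95 (adjusted p = 3.64e-05 and 6.09e-05). Slc6a3 was higher by 0.58 and 0.81 (SE 0.12, adjusted p = 0.000587 and 1.96e-05) over cortex arrays of 6.56 to 6.79. Slc18a2 was higher by 0.44 and 0.59 (SE 0.13, adjusted p = 0.0115 and 0.00103), over cortex 13 d arrays of 6.70 to 7.03. The Slc18a2 call at 21% O2 was lost without midbrain replicate 1 (0.24, limma adjusted p = 0.0967). Ddc was higher by 0.46 (SE 0.09, adjusted p = 0.000308) and 0.27 (SE 0.09, adjusted p = 0.0222), and the second call was lost without midbrain replicate 1 or cortex 13 d replicate 3 (adjusted p = 0.0871 and 0.124).

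Foxa2 was higher by 0.33 and 0.35 (SE 0.09, adjusted p = 0.00523 and 0.00373), and these calls held in all 13 alternative fits at each oxygen level. Lmx1b at 3% O2 differed by 0.24 (SE 0.10) with an adjusted p of 0.0522 and passed under 5 alternatives (adjusted p 0.0028 to 0.037), among them both rescalings. Pitx3 differed by -0.04 and -0.07 and did not pass. Pitx3 thus passed in no comparison between regions, and its 24 values all lay between 7.28 and 7.97.

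Between the labelled culture times of cortex, Nr4a2, Slc18a2 and En1 passed at both oxygen levels, Ddc at 21% O2 and Th at 3% O2. The 4 of 9 genes at each level are near the share of all probe sets called. At 21% O2, Nr4a2 and Slc18a2 were higher and En1 and Ddc lower in cortex 13 d than in cortex 48 h, where 37.2% of all probe sets were called in either direction. At 3% O2, Nr4a2, Slc18a2 and Th were higher and En1 was lower, where 42.2% were called. Nr4a2 differed by 1.37 and 1.74 (SE 0.13, adjusted p = 6.50e-08 and 1.54e-09) at 21% and 3% O2, and Slc18a2 by 0.57 and 0.59 (SE 0.13, adjusted p = 0.00182 and 0.0011), with no overlap of arrays.

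En1 was lower in cortex 13 d by -0.81 and -1.0 (SE 0.23, adjusted p = 0.00736 and 0.00115), and by -0.56 and -0.73 (limma adjusted p = 0.0161 and 0.00229) without both number 1 arrays of cortex 48 h. Leaving out replicate 1 at 21% O2 alone gave -0.56 and an adjusted p of 0.0559. Ddc was lower by -0.43 (SE 0.09, adjusted p = 0.000678) at 21% O2, and its difference at 3% O2 was -0.04. The call for Th at 3% O2, 0.30 (SE 0.11, adjusted p = 0.0375), was lost in 5 of the 6 fits without 1 array (adjusted p up to 0.131).

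The midbrain 13 d arrays were run as "1. Array" in the labels and all others as "2. Array", so their levels are set beside the other groups without a test, because run and group cannot be told apart. Th was 6.85, 6.90 and 6.75 in midbrain 13 d at 21% O2 and 6.89, 6.98 and 6.71 at 3% O2. These values lay within the range of the 12 cortex arrays (6.56 to 6.95) or just above it, and below all 6 midbrain 48 h arrays. Slc18a2 was 6.35, 6.25 and 5.99 at 21% O2 and 6.36, 6.30 and 6.21 at 3% O2, beside group means of 7.19 and 7.5 in midbrain 48 h and of 6.18 and 6.31 in cortex 48 h.

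Slc6a3 in midbrain 13 d was 6.96, 7.00 and 6.90 at 21% O2 and 6.86, 6.88 and 6.70 at 3% O2, and midbrain 48 h spanned 6.83 to 7.61. Nr4a2 was lowest of all 8 groups in midbrain 13 d, with means of 8.00 ± 0.02 and 7.62 ± 0.08 beside 9.98 ± 0.26 and 10.09 ± 0.24 at 48 h. En1 did not follow the transmitter genes. It was 8.90, 8.90 and 8.95 at 21% O2 and 9.03, 8.81 and 9.12 at 3% O2, close to the midbrain 48 h means of 9.19 and 9.17 and above 11 of the 12 cortex arrays. The exception was replicate 1 of cortex 48 h at 3% O2, at 8.86.

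The mean of Foxa2 in midbrain 13 d was 7.33 at 21% O2 and 7.36 at 3% O2, beside 7.54 and 7.48 at 48 h. Lmx1b was 7.94 and 7.89 beside 7.94 in both 48 h groups, and Pitx3 was 7.55 and 7.65 beside 7.37 and 7.38. The neuron markers given above were lower there too, with a mean of 8.3, and the mean of 8 astrocyte markers was 10.4 and 10.2 beside 8.24 and 8.22 in midbrain 48 h. The part of these cell types in the levels was not tested.

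Between 3% and 21% O2, 1 of the 9 genes was called in 1 of the 4 pairs of region and time. In midbrain 48 h, limma called 0 of the 9 genes (1 had an unadjusted p below 0.05), where 1.19% of all probe sets were called. Slc18a2 had the largest difference, 0.31 (95% interval 0.03 to 0.59, adjusted p = 0.275), from 7.58, 7.13 and 6.85 at 21% O2 to 7.58, 7.65 and 7.27 at 3% O2, which overlap. It reached 0.51 (limma adjusted p = 0.0291) without replicate 1 of 21% O2, and 0.26 (adjusted p = 0.394) without both number 3 arrays. The interval for Th was -0.17 to 0.30, for Slc6a3 -0.06 to 0.45, for Nr4a2 -0.17 to 0.39 and for En1 -0.50 to 0.45.

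In midbrain 13 d, Nr4a2 was lower at 3% O2 and was the 1 gene of the 9 called, where 23.9% of all probe sets were called in either direction. Its arrays read 7.60, 7.54 and 7.70 at 3% O2 and 7.98, 8.03 and 8.00 at 21% O2. The groups did not overlap, and the difference was -0.39 (SE 0.13, adjusted p = 0.0395). That call was lost in each of the 6 fits without 1 array, where the difference stayed between -0.43 and -0.35 and the limma adjusted p lay between 0.0523 and 0.112. It held in the other 7 alternatives. Ddc, at 6.00, 6.00 and 5.94 against 6.11, 6.13 and 6.21, did not overlap either and did not pass (-0.17, adjusted p = 0.224), except in a fit of the compared arrays alone (adjusted p = 0.0304). Slc6a3 also did not overlap and did not pass (-0.14, adjusted p = 0.523).

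In cortex 48 h, 0 of the 9 genes were called (2 had an unadjusted p below 0.05), where 12.3% of all probe sets were called. Ddc was nearest, at 5.95, 5.94 and 6.08 at 3% O2 and 6.03, 6.40 and 6.35 at 21% O2, a difference of -0.27 (SE 0.09, adjusted p = 0.0615). Its arrays overlapped only through replicate 1 of 21% O2, and without both number 1 arrays the difference was -0.36 and passed (limma adjusted p = 0.0115). It also passed without that array alone (-0.38, adjusted p = 0.00285) and under both rescalings (adjusted p = 0.048 and 0.0376). En1 differed by 0.56 (SE 0.23, adjusted p = 0.123), with overlapping arrays. It passed without replicate 2 of 3% O2 (0.77, limma adjusted p = 0.0445) or replicate 1 of 21% O2 (0.81, adjusted p = 0.0147), but not without both number 1 arrays (0.54, adjusted p = 0.0729). With the replicate number as a block, a pairing not adopted for cortex, En1 and Ddc both passed (limma adjusted p = 0.00774 and 0.0314). Slc18a2 did not overlap between the oxygen levels and did not pass (0.13, adjusted p = 0.631).

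In cortex 13 d, 0 of the 9 genes were called and 0 had an unadjusted p below 0.05, where 0.607% of all probe sets were called. The differences ran from -0.07 for Foxa2 and Lmx1b to 0.37 for En1 (95% interval -0.11 to 0.84). Th was 6.95 on all 3 arrays at 3% O2 and 6.88, 6.91 and 6.76 at 21% O2, which did not overlap, and its difference of 0.10 (95% interval -0.13 to 0.33, adjusted p = 0.989) did not pass.

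**Figure D4:**
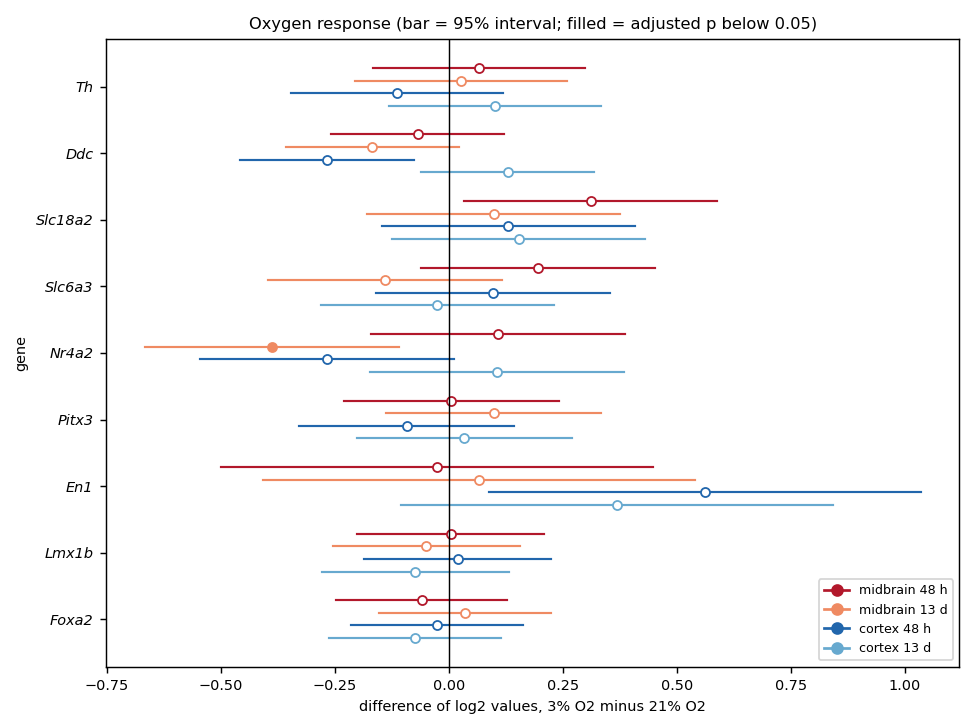
Log2 difference of 3% O2 from 21% O2 for the 9 genes (x axis) in the 4 pairs of region and labelled time, with bars for the 95% interval and filled points for an adjusted p below 0.05. The single filled point is Nr4a2 in midbrain 13 d at -0.39.

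Differences between oxygen responses were tested as interaction terms. Between midbrain 13 d and 48 h, 0 of the 9 genes passed (1 at an unadjusted p below 0.05), where 15.1% of all probe sets were called, and each array run holds both oxygen levels. Nr4a2 was nearest, at -0.50 (SE 0.19, adjusted p = 0.0864), so its call at 13 d was not shown to differ from its 0.11 at 48 h. It passed without replicate 1 of 3% O2 at 48 h or replicate 2 of 21% O2 at 48 h (limma adjusted p = 0.0283 and 0.02), and Slc6a3 (-0.34, adjusted p = 0.23) passed without replicate 1 of 21% O2 at 48 h (-0.51, adjusted p = 0.0187).

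Between the cortex times, 0 of the 9 passed (1 at an unadjusted p below 0.05), where 4.13% of all probe sets were called. Ddc stood at 0.40 (SE 0.13, adjusted p = 0.0944) and passed without both number 1 arrays of cortex 48 h (0.49, limma adjusted p = 0.012). Between midbrain and cortex at 48 h, 0 of the 9 passed and 0 had an unadjusted p below 0.05, where 5.88% of all probe sets were called.

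Genes with the most similar pattern over the 24 arrays were found for the members whose group means spanned at least 1. Nr4a2 was matched by Pja1, Crmp1 and Lpgat1, each with a Pearson r of 0.98. En1 was matched by En2 (0.96), its close relative, by Crnde (0.96) and by Lgr5 (0.94). Slc18a2 was matched by Coch, Reep5 and C1qtnf4, each with 0.96. The arrays share group, region and run, and over the 18 arrays of the second run En2 and Crnde stayed among the first 3 for En1 and Coch for Slc18a2, while those for Nr4a2 were Bach2, Nnat and Sox11.

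Among the members themselves, Slc18a2 correlated with Th at 0.86 and with Nr4a2 at 0.82 over the 24 arrays. En1 correlated with Foxa2 at 0.77, Slc6a3 at 0.73, Lmx1b at 0.59, Ddc at 0.51 and Th at 0.46. Its values with Slc18a2, Pitx3 and Nr4a2 were 0.18, 0.15 and -0.26. Over the 18 arrays of the second run, En1 correlated with Slc6a3 at 0.88, Th at 0.67, Slc18a2 at 0.51 and Nr4a2 at 0.08. These are descriptions over arrays of shared groups.

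Other genes of the dopamine lineage were read from lists. Over all probe sets, 24.3% were called higher and 30.5% lower in midbrain 48 h than in cortex 48 h at 21% O2, and 24.3% and 36.9% at 3% O2. Of 12 measured floor plate and progenitor genes, 6 were higher and 3 lower at 21% O2. The 3 with the smallest p were Otx2, a midbrain and forebrain factor (2.38, SE 0.22), and Spon1 and Ntn1, both secreted floor plate guidance proteins, which were lower in midbrain (-0.68, SE 0.08, and -1.04, SE 0.14; limma adjusted p up to 1.76e-06). Against cortex 13 d at 21% O2, 7 were higher and 0 lower, and Spon1 was then higher in midbrain by 1.37 (SE 0.08).

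Of 15 genes known from midbrain dopamine neurons, 9 were higher and 2 lower at 21% O2 against cortex 48 h, with a median of 0.29. Bnc2 (2.79, SE 0.07) and Ebf3 (3.18, SE 0.20) were higher, and Sox6 was lower (-2.28, SE 0.11). Each is a transcription factor also known outside dopamine neurons. Against cortex 13 d, 7 of the 15 were higher and 4 lower at 21% O2, where 19.5% and 21.9% of all probe sets were. At 3% O2, 8 were higher and 5 lower, where 19.7% and 23.1% of all probe sets were. The medians against cortex 13 d were 0.20 and 0.27.

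Of 7 measured genes of cofactor supply and breakdown, 0 were higher and 6 lower in midbrain 48 h than in cortex 48 h at either oxygen level, with medians of -0.86 at 21% O2 and -1.43 at 3% O2. At 21% O2, Maoa, a monoamine oxidase that breaks dopamine down, differed by -2.0 (SE 0.12), and Spr and Qdpr, which make and recycle the tetrahydrobiopterin that Th needs, by -1.15 (SE 0.09) and -0.99 (SE 0.11). Astrocyte, oligodendrocyte and progenitor markers were lower in the same comparison, as given above, and their part in these differences was not tested. Maoa was 7.57, 7.40 and 6.90 in midbrain 48 h and 9.25, 9.29 and 9.34 in cortex 48 h. Gch1, the first enzyme of tetrahydrobiopterin synthesis, was the one that did not pass, at 5.96 ± 0.12 against 5.88 ± 0.05. Within cortex, 5 of the 7 were lower in cortex 13 d at 21% O2 and 7 of the 7 at 3% O2, where 20.4% and 24.7% of all probe sets were called lower.

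Genes of noradrenaline and serotonin neurons did not follow Th and Slc18a2. Of 7 measured, 1 was higher in midbrain 48 h than in cortex 48 h at 21% O2 and 0 lower, and the 1 was Gata3 (4.57, SE 0.11), a factor also known from midbrain GABA neurons. Dbh, which turns dopamine into noradrenaline, was 6.33, 6.18 and 6.41 in midbrain 48 h and 6.43, 6.41 and 6.33 in cortex 48 h at 21% O2. At 3% O2 Gata3 was again the one higher, and Dbh (-0.19) and Phox2a (-0.31) were lower.

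Of the 5 dopamine receptor genes, Drd2, the receptor that dopamine neurons also carry on themselves, and Drd5 were higher in midbrain 48 h than in cortex 48 h at 21% O2, by 1.07 (SE 0.07) and 0.22 (SE 0.05), and 0 were lower. Against cortex 13 d at 3% O2, Drd2 was lower in midbrain (-0.45, SE 0.07), so it did not mark midbrain over both cortex groups.

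In midbrain 13 d, where 23.9% of all probe sets were called between the oxygen levels, 4 of the 12 floor plate genes and 4 of the 15 dopamine neuron genes were called, shares near that of all probe sets. Of the 7 cofactor and breakdown genes, 3 were higher at 3% O2, among them Spr (0.33, SE 0.09), and Maob (-0.50, SE 0.09) and Pts (-0.48, SE 0.10) were lower. Of the 12 floor plate genes, 3 were higher and 1 lower. The 1 lower was the proneural factor Neurog2 (-0.66, SE 0.06), at 7.82, 7.90 and 7.97 at 21% O2 and 7.19, 7.32 and 7.21 at 3% O2 with no overlap. Of the 15 dopamine neuron genes, Satb1 (-0.48, SE 0.07), Sox6 (-0.70, SE 0.11) and Aldh1a1 (-0.31, SE 0.08) were lower and 1 was higher. The mean of the 10 endothelial, pericyte and meningeal markers was 7.18 to 7.32 on the 3 arrays at 3% O2 and 6.83 to 6.88 at 21% O2, with 2 of the 10 called higher and 0 lower, and its part in these differences was not tested.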

How the data were processed

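A single table of log2 values from MoGene-1_0-st-v1 arrays was deposited by the authors and is called normalized in the labels. The normalization method was not given in the sources used here. Levels are relative to the typical gene of an array. Members and gene lists were chosen with earlier results of these data known. Limma 3.58.1 in R 4.3.3 fitted 8 group means to all 24 arrays (16 residual degrees of freedom, eBayes), with two-sided tests and Benjamini-Hochberg adjustment over the 23410 probe sets with a symbol in each of 13 comparisons, and a threshold of 0.05. The model was tested on simulated data. Probe sets of several symbols (1621) entered the fit but named no gene.

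All 9 members are named in the text, as are list genes past the threshold, up to 3 per list and comparison by p, and the 3 genes most like a member whose means span at least 1. The values given for Gch1, for Dbh at 21% O2, for Dlk1 and for the markers Pax7, Tbr1, Dcn, En2, Otx2, Emx2, Lhx2 and Gfap were chosen after their values were seen. Same-numbered arrays at 3% and 21% O2 had correlated deviations in midbrain 48 h (0.12, 0.22 and 0.24) and 13 d (0.12, 0.42 and 0.31). The numbers were therefore taken to pair those arrays. The main tests did not use this pairing, which entered only the alternative fit with the replicate block. Arrays 1 and 3 of midbrain 13 d also correlated across numbers, at 0.16 and 0.17, so the pairing there is uncertain. Cortex pairs did not all exceed 0.1, with 0.29, 0.42 and -0.04 at 48 h and -0.01, 0.23 and -0.37 at 13 d, and were not taken as pairs. Alternatives were quantile normalization, median centring, all probe sets, brighter probe sets only, the compared arrays alone, trend and robust variances, the replicate block, and fits without 1 array or without arrays that stood apart. Sequences are from RefSeq, build GRCm38.p6, and matched all 10 genes. Array number limits the precision.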

Additional observations from a re-analysis of the deposited data

Results flagged for a closer look

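None of the 9 members had an oxygen response that differed between times or regions by the interaction test. Among the dopamine-related lists, 15 differences between responses passed (limma, adjusted p below the threshold), with no explanation offered here. The lists held 12, 15, 7, 7 and 5 measured genes, with Drd2 in those of 15 and 5. Over all probe sets, 15.1% were called between midbrain times, 4.13% between cortex times and 5.88% between regions at 48 h. Between midbrain 13 d and 48 h, the response (3% minus 21% O2) was larger at 13 d for Corin by 0.33, Spon1 by 0.36, Gch1 by 0.37 and Qdpr by 0.51. It was more negative at 13 d for Neurog2 (-0.55), Aldh1a1 (-0.39), Satb1 (-0.48), Sox6 (-0.70), Maob (-0.48) and Drd3 (-0.27). Between cortex 13 d and 48 h, the response differed by -0.73 for Spon1, 0.87 for Ntsr1, 0.71 for Drd2 and -1.05 for Pcbd1. Between midbrain and cortex at 48 h it differed by -0.78 for Spon1. Drd2, the dopamine autoreceptor, is the one gene here whose responses passed in opposite directions, at -0.36 (SE 0.07, adjusted p = 0.00126) in cortex 48 h and 0.36 (SE 0.07, adjusted p = 0.0117) in cortex 13 d, with arrays of 6.68, 6.74 and 6.74 against 7.24, 6.93 and 7.07 in the first and 8.56, 8.41 and 8.43 against 8.11, 8.10 and 8.11 in the second.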

How the results depend on the processing

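Of 1731 differences of the 9 genes recomputed under the alternatives, 1594 kept their direction and side of the threshold, 30 calls were lost and 24 gained. Another 83 changed sign while past the threshold in neither fit, and 0 changed sign while past it in either. The calls for Th, Nr4a2 and En1 in midbrain 48 h against both cortex groups, except Nr4a2 against cortex 13 d, where there was none, held in every alternative run. Restricting the fit to the brighter probe sets left 3 of the 9 genes to test, so counts fell by construction, to 2 and 2 against cortex 48 h at 21% and 3% O2, to 1 and 2 against cortex 13 d, and to 2 and 2 between the cortex times. With the compared arrays alone, the oxygen comparison in midbrain 13 d called 2 genes in place of 1. In cortex 48 h, the oxygen comparison called 1 gene in place of 0, Ddc, under quantile normalization, median centring, trend and robust variances, and without both number 1 arrays. Without those 2 arrays the difference of oxygen responses between the cortex times also called 1 gene, Ddc. The cause of these changes was not tested.

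With the replicate number as a block, the oxygen comparisons in midbrain called 0 genes at 48 h and 1 at 13 d, as without it. The numbers were not taken to pair the cortex arrays or the regions, though the labels do not settle this. There the block gave 2 calls for oxygen in cortex 48 h (En1, adjusted p = 0.00774, and Ddc, adjusted p = 0.0314, by limma). It gave 1 for the difference between cortex times and 7 in midbrain 48 h against cortex 13 d at 3% O2.

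Leaving out 1 array at a time, the count of called genes ran from 0 to 1 for oxygen in midbrain 48 h, 0 to 0 in midbrain 13 d, 0 to 2 in cortex 48 h and 0 to 0 in cortex 13 d. It ran from 5 to 6 and from 5 to 7 against cortex 48 h at 21% and 3% O2, from 5 to 6 in both against cortex 13 d, and from 3 to 4 in both between the cortex times. For the differences of oxygen responses it ran from 0 to 1 between midbrain times, 0 to 1 between cortex times and 0 to 0 between regions.

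Counts over all 23410 probe sets moved by over 1.5 times in several comparisons. Oxygen in midbrain 48 h called 279 and ran from 4 (compared arrays alone) through 147 (without both number 3 arrays) and 156 (brighter probe sets) to 422 (quantile normalization). Oxygen in cortex 48 h called 2886, and 311 with the compared arrays alone. Oxygen in cortex 13 d called 142, and 348 with the compared arrays alone. The cortex time difference of responses called 967, against 377, 1596 (block) and 2496 (without both number 1 arrays), and the regional one 1377, against 331, 2116, 2755 and 856 (without both number 3 arrays). Midbrain 48 h against cortex 48 h at 3% O2 called 14332, and 9524 of 11705 brighter probe sets. Without 1 array the lowest counts were 141, 1725, 68, 429 and 752, and the highest 302, 4210, 110, 2970 and 3084, for oxygen in midbrain 48 h, cortex 48 h, cortex 13 d, and the differences between cortex times and regions. With 3 arrays a group and no measure of background, changes within the intervals given were not detectable.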

Other observations

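Dlk1, a Notch-like surface protein known from midbrain dopamine neurons, was chosen here after its values were seen. It was 11.12, 11.13 and 11.22 in midbrain 48 h at 3% O2 and 10.57, 10.66 and 10.42 at 21% O2, without overlap, a difference of 0.60 (SE 0.18, limma adjusted p = 0.12) that did not pass. In midbrain 13 d it was 10.05, 9.58 and 10.07 at 3% O2 and 9.24, 9.28 and 9.26 at 21% O2, a difference of 0.64 (SE 0.18, adjusted p = 0.0142) that passed. The differences in cortex were 0.20 at 48 h and 0.35 at 13 d and did not pass.

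Emx2 and Lhx2, both forebrain genes, were not low in midbrain 48 h. Emx2 read 9.13 to 9.45 on its 6 arrays and Lhx2 10.6 to 10.9, while midbrain 13 d read 6.29 to 6.95 and 8.52 to 9.01, in the other array run.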
